A study of Homo sapiens with 40 samples.

Results

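The 41 genes described here act in homologous recombination, in the Fanconi anemia pathway and in the ATM and ATR checkpoints of the cell cycle. They were taken by name, with the symbols of GENCODE 44, from a table of raw read counts that lists 58395 genes by Ensembl identifier. All 41 were found, and all 41 were among the 28922 genes that had at least 10 counts summed over the libraries and were tested. Their mean count per library ranged from 46.4 to 3987.

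Homologous recombination repairs a break through both strands of DNA by copying the sister chromatid. The complex of MRE11, RAD50 and NBN starts to trim the broken ends together with RBBP8 (CtIP), EXO1 and DNA2 trim them further, and BRCA1 with BARD1, PALB2 and BRCA2 act on the single strand that is left. The Fanconi core complex attaches ubiquitin to FANCD2 and FANCI at crosslinked DNA, while ATM and ATR are the kinases that report breaks and stalled replication to CHEK2 and CHEK1. PARP1 binds breaks in DNA and makes poly(ADP-ribose) there, and cells without BRCA1 or BRCA2 are known to be sensitive to inhibitors of PARP1.

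RNA sequencing of poly(A) RNA was carried out in HEK293A cells, an adherent line derived from human embryonic kidney, in 10 groups of 4 libraries. The groups were wild-type (WT) cells and PARP1-knockout (PARP1-KO) cells that received no treatment, 0.1% DMSO, topotecan (Tpc) with 0.1% DMSO, OL9-119 at 5 µM in 0.1% DMSO, or Tpc together with OL9-119 at 5 µM, for 5 to 5.5 h. Tpc traps topoisomerase 1 on DNA and was used at 100 nM in WT and at 50 nM in PARP1-KO cells. OL9-119 inhibits TDP1, which removes trapped topoisomerase 1. The knockout was made in HEK293A with CRISPR/Cas9 by deletion in exons of PARP1, and the methods carry 1 clone forward, so that PARP1 genotype and clone cannot be told apart. The sample titles call the mutant cells a knockout and another label calls them a knockdown, and the titles call the replicates biological while the methods call them technical. P-values therefore measure the spread between these libraries, which may be technical.

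The libraries held between 3455043 and 20379777 counts on genes (median 10656829). The level of PARP1, as CPM (counts scaled to a common TMM-normalized library size), had a group mean of 783 to 843 in WT and of 36.5 to 41.6 in PARP1-KO cells, and the genotypes did not overlap. When every library was thinned to 3455043 counts, 15413 to 20095 genes were detected per WT and 17618 to 21189 per PARP1-KO library, and mitochondrial genes held 4.73 to 8.25% of the counts in WT and 3.73 to 4.97% in PARP1-KO cells. Replicate 3 of untreated WT cells and replicate 3 of WT cells with DMSO were the least like their groups, and calls that were lost without one of them are named below. Of the markers chosen for the line, VIM, KRT8, KRT18 and NEFL had means of 280 to 718 CPM over all libraries, NEFM had 9.93 and PAX2, a kidney gene, only 2.22. Markers of endothelial, blood and connective tissue cells had means of 0.0344 to 3.19 CPM, apart from COL1A1 with 19.7. Between the genotypes with DMSO, 4 of the 6 markers of the line were lower in PARP1-KO cells (KRT8, KRT18, NEFM and PAX2, log2 -0.38 to -2.51) and VIM was higher (0.60), while COL1A1 was lower (-1.04) and CD14, at no more than 4.73 CPM in any library, was higher among the 11 markers of other cells. KRT18 (-0.47) and KRT8 (-0.55) were also lower in WT cells with the combination than without treatment. Their part in the results below was not tested.

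In untreated WT cells the members spanned a wide range of levels, compared here per kb of exonic sequence. That length joins all exons annotated for a gene, with 7.34 kb for TOPBP1, 16.4 kb for RAD51C, 27.2 kb for ATR and 39.2 kb for ATM. Single transcripts can be shorter, so the order below holds for this length only and depends on the annotation. TOPBP1, the activator of ATR, stood highest with 23.9 ± 4.88 CPM per kb (SD, n = 4), followed by FANCI with 20.3 ± 1.14, MRE11 with 20.1 ± 2.53 and the exonuclease EXO1 with 18.5 ± 3.12. These neighbours lay within their SDs of each other. On this scale the kinases ATM and ATR, with their long joined exons, were near the bottom with 0.884 ± 0.315 and 1.16 ± 0.528 CPM per kb. FANCB, RAD54B and RAD50 were lowest with 0.506 ± 0.207, 0.621 ± 0.519 and 0.44 ± 0.258. RAD50 shares 76.9% of its exonic bases with another gene on its strand, RAD54B 66.0% (with FSBP) and ATRIP 26.7% (with TREX1), and XRCC3 shares 76.7% with KLC1 on the other strand. Counts of such genes are uncertain, because the strand setting of the counting is not given in the sources used here. Values of RAD50 and RAD54B, at these low levels, are listed below but not interpreted. RAD54L, FANCA, RECQL5, EME1 and MUS81 share between 14.1 and 19.9% of their exonic bases with genes of the other strand.

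**Figure D1:**
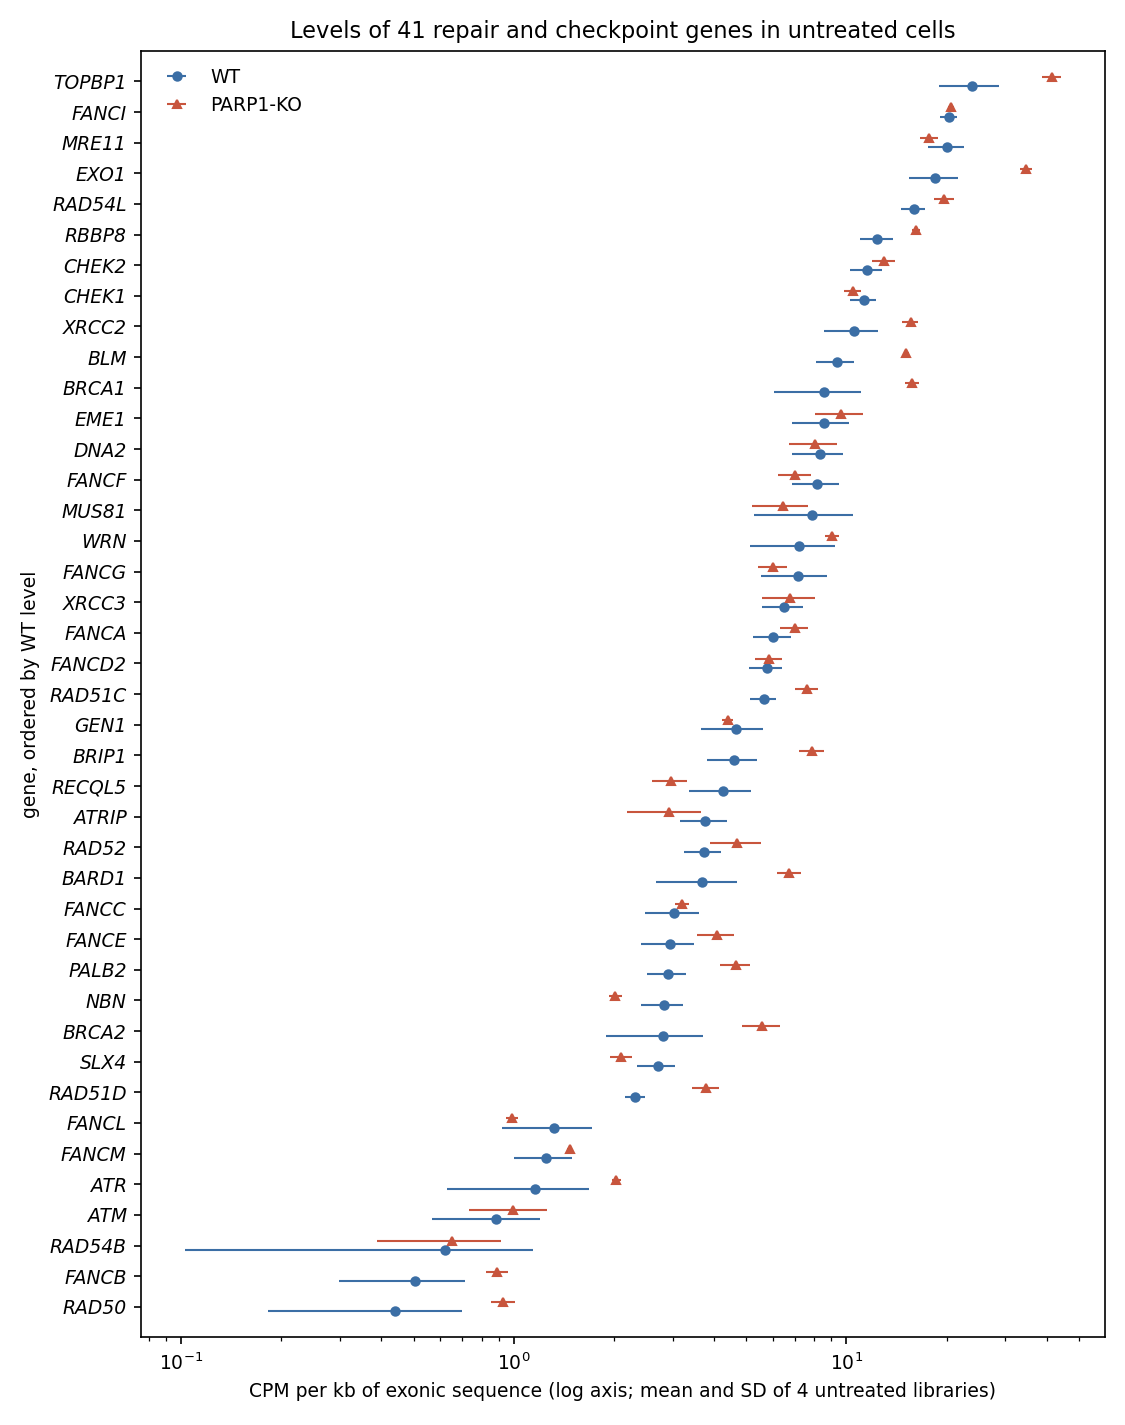
Level of each of the 41 genes in untreated WT and PARP1-KO cells, as CPM per kb of exonic sequence on a log axis, with the mean and SD of 4 libraries. The length joins all annotated exons of a gene, and the order of the genes depends on it. TOPBP1 is highest in both genotypes, and BRCA1, BRCA2, EXO1, ATR and RAD51D stand apart between the genotypes, while FANCD2 and FANCI coincide.

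The first comparison asked how the loss of PARP1 changes these genes in cells that received only the solvent. In PARP1-KO cells with DMSO, 13 of the 41 genes were higher than in WT cells with DMSO and 0 were lower (quasi-likelihood test of edgeR, Benjamini-Hochberg adjusted p below 0.01 over all tested genes). Of all 28922 tested genes, 12.4% passed the same threshold, 6.67% higher and 5.75% lower. Among the 12302 genes counted at least as highly as the lowest member, 14.1% were higher and 12.9% were lower. The median log2 fold change of the members was 0.27, beside 0.19 for all tested genes and 0.02 for these 12302. In 18 members the CPM of the groups did not overlap, against 20.1% of all tested genes. The count was 7 in a fit of the compared groups only and 9 without replicate 3 of PARP1-KO cells.

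The BRCA complex rose as a whole, with all 4 of its members higher. BRCA2, a tumor suppressor that acts on single-stranded DNA, had 30.7, 41.7, 29.96 and 52.4 CPM in the 4 WT libraries and 76.8, 89.8, 129 and 83.6 CPM in the 4 PARP1-KO libraries. Every mutant library was thus above every WT library, and the fold change was 2.46 (log2 1.30 ± 0.21, SE; edgeR adjusted p = 2.6e-06). BARD1, the partner that stabilizes BRCA1, had 28.7, 31.0, 26.1 and 32.6 CPM in WT and 52.6 to 67.5 CPM in PARP1-KO cells, without overlap (log2 0.95 ± 0.16, edgeR adjusted p = 3.59e-06). BRCA1 itself, the ubiquitin ligase of the complex, had 108, 131, 128.4 and 165 CPM in WT and 208, 227, 241 and 249 CPM in PARP1-KO cells (log2 0.80 ± 0.14, edgeR adjusted p = 1.8e-05). PALB2, the bridge between BRCA1 and BRCA2, was higher by 0.76 ± 0.18 on the log2 scale, with 11.1 to 26.4 CPM in WT and 29.6 to 45.1 CPM in PARP1-KO cells. That call was lost when WT replicate 3 or PARP1-KO replicate 3 was left out.

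Of RAD51C, RAD51D, XRCC2 and XRCC3, which act in complexes with each other during recombination, 3 of 4 were higher. RAD51D had 28.99, 18.4, 25.3 and 28.3 CPM in WT and 43.998, 43.2, 58.5 and 47.4 CPM in PARP1-KO cells, without overlap (log2 0.94 ± 0.15, edgeR adjusted p = 2.45e-06). XRCC2 differed by 0.64 ± 0.15 and RAD51C by 0.40 ± 0.11 on the log2 scale. RAD51C was close to the threshold, and its call was lost under 14 of 21 alternatives. XRCC3 differed by 0.10 only. Among the helicases of the RecQ family, BLM, which dissolves joined DNA molecules, was higher by 0.68 ± 0.13, while WRN had a log2 fold change of 0.51 and RECQL5 of -0.22 that did not pass. None of RAD52, RAD54L and RAD54B, which anneal strands or move along DNA, passed the test (log2 0.12 to 0.59).

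In end resection the members went apart. EXO1, the exonuclease of long-range resection, had 83.4, 108, 69.5 and 90.6 CPM in WT and 143, 146, 181 and 160 CPM in PARP1-KO cells, and did not overlap (log2 0.84 ± 0.12, edgeR adjusted p = 1.9e-07). The genes of the complex that starts the process did not pass, with log2 fold changes of -0.05 for MRE11 and -0.24 for NBN, nor did RBBP8 (0.20) and DNA2 (0.11). RAD50, the subunit with uncertain counts, had a log2 fold change of 1.45 ± 0.46 and missed the threshold as well (edgeR adjusted p = 0.0184).

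Of the 8 genes of the Fanconi core complex FANCB alone passed the test, and of FANCD2, FANCI and BRIP1 only BRIP1 did. FANCB, an X-linked subunit of the core complex, had 4.62, 8.86, 0.240 and 6.89 CPM in WT and 14.7, 12.96, 23.8 and 12.6 CPM in PARP1-KO cells (log2 1.63 ± 0.38, edgeR adjusted p = 0.000963). The lowest WT value belongs to replicate 3, and without both of the WT libraries that stand apart the log2 fold change was 1.24. The call was lost without PARP1-KO replicate 3 (edgeR adjusted p = 0.0113). The other core subunits did not pass, with log2 fold changes from -0.41 for FANCL, the ubiquitin ligase of the complex, to 0.71 for FANCM, the translocase that anchors it. FANCD2, the protein that the core complex modifies, had 55.9, 80.9, 63.8 and 68.3 CPM in WT and 67.8, 69.9, 71.3 and 72.9 CPM in PARP1-KO cells, and the groups overlapped fully. Its log2 fold change was 0.07 (95% interval -0.21 to 0.35), and that of its partner FANCI was -0.03 (-0.22 to 0.15). BRIP1 (FANCJ), a helicase that binds BRCA1, had 67.7, 88.9, 79.8 and 97.5 CPM in WT and 145, 158, 178 and 152 CPM in PARP1-KO cells, so that it was higher without overlap (log2 0.92 ± 0.14, edgeR adjusted p = 3.82e-07). The junction nuclease genes MUS81, EME1 and GEN1 and the scaffold SLX4 did not pass, with log2 fold changes from -0.52 for MUS81 to 0.30 for EME1.

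In the checkpoint, ATR and TOPBP1 were higher and the kinases on the ATM side and downstream were not. ATR had 32.5, 38.2, 23.3 and 55.7 CPM in WT and 61.6, 60.7, 75.4 and 69.9 CPM in PARP1-KO cells (log2 0.84 ± 0.21, edgeR adjusted p = 0.00215), a call that was lost without WT replicate 1 or 3 or PARP1-KO replicate 3. TOPBP1 was higher by 0.72 ± 0.13 on the log2 scale. ATM ranged from 19.5 to 61.2 CPM in WT and from 32.3 to 45.2 CPM in PARP1-KO cells (log2 0.09, 95% interval -0.40 to 0.58), and CHEK1, the effector kinase of ATR, from 39.2 to 78.5 and from 54.8 to 72.3 CPM (log2 0.02, -0.28 to 0.31). The mutant libraries of both genes lay inside the WT range. ATRIP, the partner of ATR, had a log2 fold change of -0.51 and CHEK2 of 0.27, and neither passed.

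**Figure D2:**
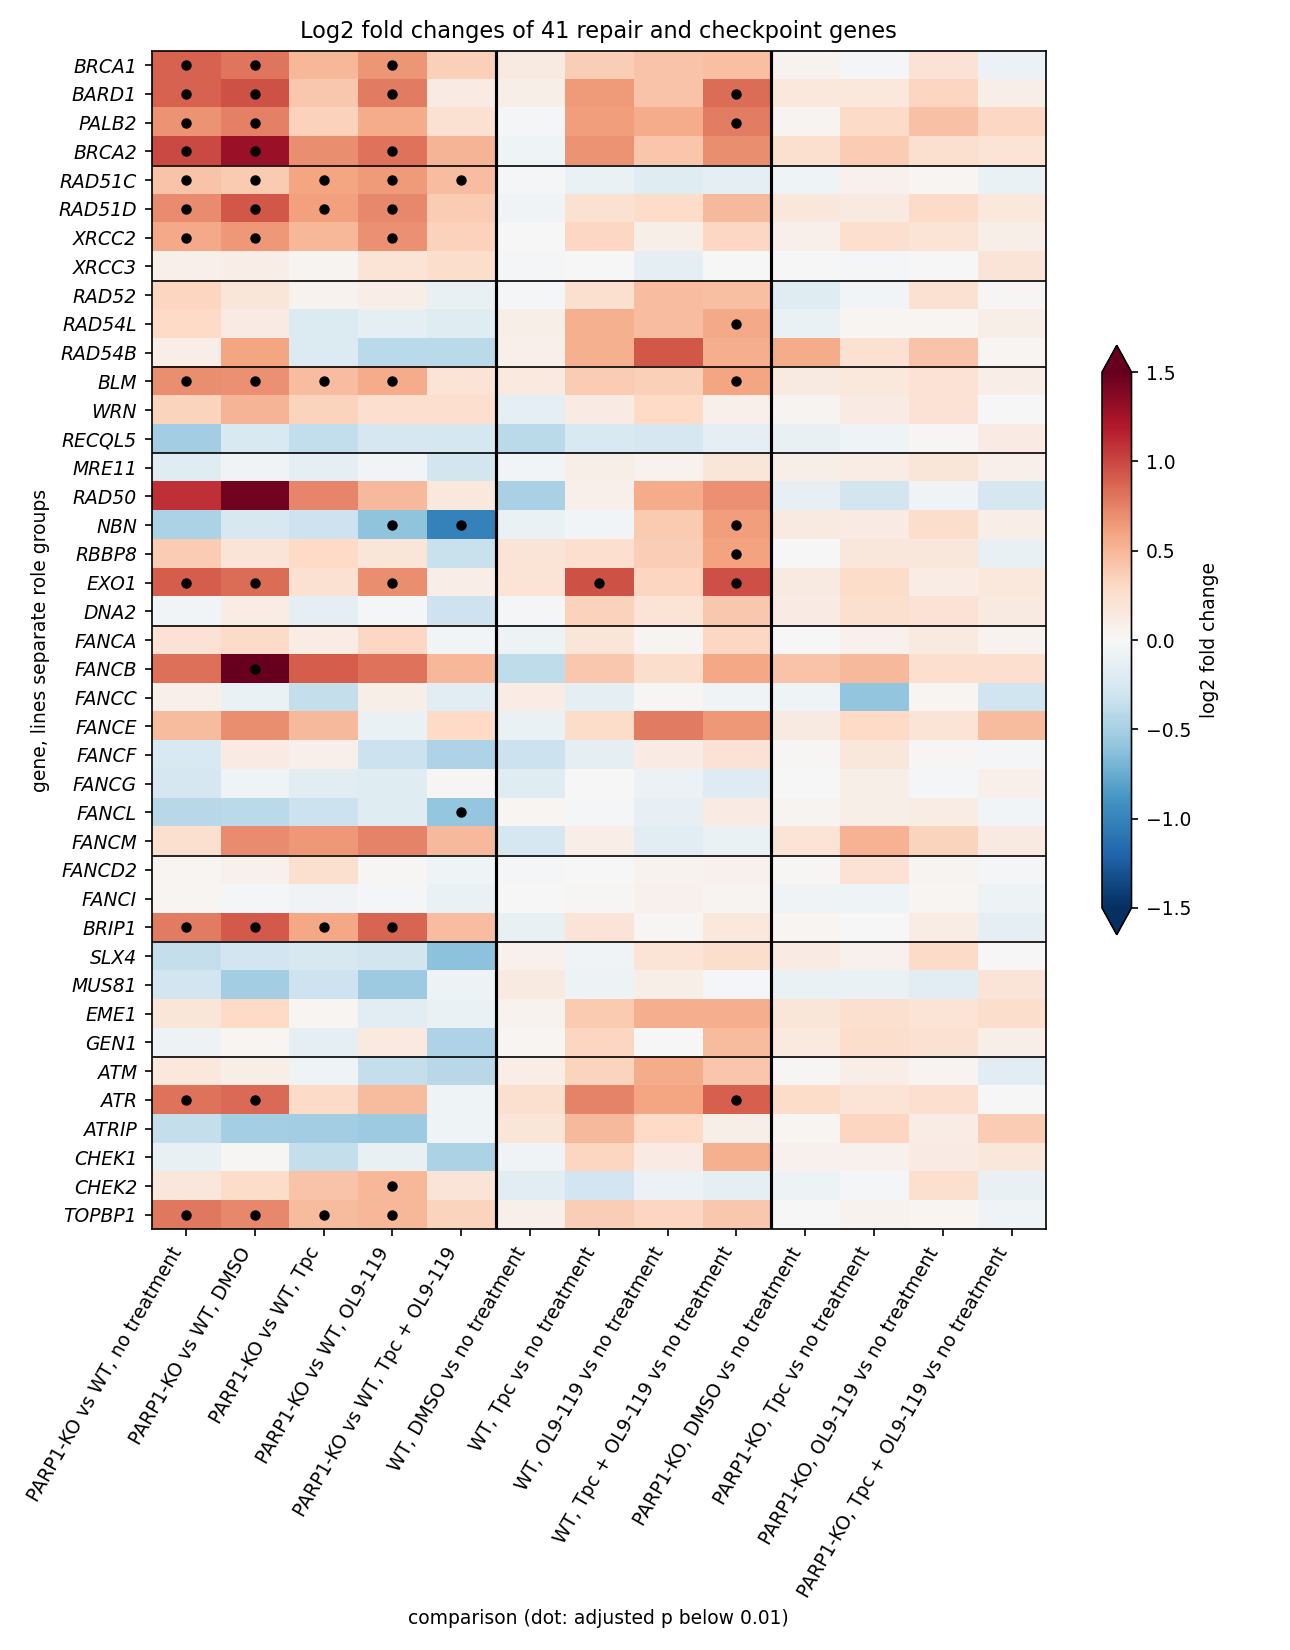
Log2 fold change of each gene (rows, lines between role groups) in the genotype comparisons, in WT cells against no treatment and in PARP1-KO cells against no treatment (columns), with a dot where the adjusted p was below 0.01. Colors stop at 1.5, above which FANCB with DMSO lies at 1.63, and no gene has a dot in the 4 columns of PARP1-KO cells.

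The untreated cells gave a second set of libraries of the same cells. There 12 members were higher in PARP1-KO cells and 0 were lower, beside 11.7% of all tested genes (5.97% higher and 5.74% lower). Among the 12302 genes counted at least as highly as the lowest member, 13% were higher and 12.9% lower. Without both of the WT libraries that stand apart, 11 were called. Once the fit had offsets for length and GC content, 8 were higher and 3 lower, where the calls over all genes went from 1727 higher and 1659 lower to 1404 and 2167. In the fit without offsets, all 12 were also among the 13 with DMSO, which is 100% of the first list and 92.3% of the other, and FANCB made the difference with a log2 fold change of 0.83 (edgeR adjusted p = 0.116). BRCA2 had 30.9, 38.4, 32.9 and 59.6 CPM in WT and 87.0, 65.0, 83.1 and 86.5 CPM in PARP1-KO cells (log2 1.00 ± 0.21). EXO1 had 58.6, 75.7, 85.2 and 86.7 CPM in WT and 152, 142, 143 and 138 CPM in PARP1-KO cells (log2 0.91 ± 0.12, edgeR adjusted p = 3.46e-08). BARD1 had 18.9, 31.0, 24.9 and 36.6 CPM in WT and 44.9, 52.9, 51.7 and 54.4 CPM in PARP1-KO cells (log2 0.88 ± 0.16). These 3 genes had no overlap between the groups, and neither had BRCA1 and ATR. BRCA1 had 86.1, 142, 96.1 and 160 CPM in WT and 215, 214, 225 and 238 CPM in PARP1-KO cells (log2 0.88 ± 0.14). ATR had 27.4, 37.6, 13.7 and 47.3 CPM in WT and 53.6, 55.7, 54.6 and 57.5 CPM in PARP1-KO cells (log2 0.82 ± 0.21, edgeR adjusted p = 0.00326), so that the WT libraries were spread far wider than the mutant ones. This call of ATR was lost in 8 of 21 alternatives, among them the fits without WT replicate 1, WT replicate 3 (log2 0.57, edgeR adjusted p = 0.04) or PARP1-KO replicate 4. PALB2 lost its call without WT replicate 1 or 3 or PARP1-KO replicate 1 or 4, RAD51C without WT replicate 4 or PARP1-KO replicate 1, 2 or 4, and XRCC2 without WT replicate 1 or 2 or PARP1-KO replicate 4. The prefixes of the library names sort the libraries into batches of an unstated kind. Within each of the 3 prefixes that held both genotypes with DMSO, all 13 genes were higher in PARP1-KO cells, with a median log2 ratio of 0.82 to 0.89. Without treatment all 12 were higher within both prefixes that held both genotypes. These genes had been called in the same libraries, and each prefix held 1 or 2 libraries per genotype. The ratios therefore describe the called genes and are no test of a batch.

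The coordinates on hg38 were, for the genes on which the results turn, chromosome 13, 32315086 to 32400268 for BRCA2, chromosome 1, 241847967 to 241895148 for EXO1, chromosome 17, 61679139 to 61863559 for BRIP1 and chromosome 3, 142449007 to 142578733 for ATR, each from the GENCODE 44 gene model. Sequence beside the start of transcription was read for 36 of the 41 genes, from 250 bases before to 50 bases after the RefSeq start (GRCh38.p14), because many genes of DNA replication and repair are known targets of the E2F factors. A match to TTTGGCGC or to TTTCGCGC or to GCGGGAAA on either strand stood in 6 of these 36 promoters (16.7%) and in 2.74% of all 35116 promoters in the table. Of the 13 genes that were higher in PARP1-KO cells 3 held a match, and of the 23 others with an entry 3 did. The stretches around the start of the 3 that were higher and of 2 that were not, FANCD2 and the nuclease gene GEN1, are given 5′ to 3′ on the strand of the gene, from 60 bases before to 30 bases after the start, with the match, read on either strand, in capitals. They lie at chr1:241848144-241848233 (plus strand, EXO1), chr7:152676112-152676201 (minus, XRCC2), chr3:133661912-133662001 (minus, TOPBP1), chr3:10026377-10026466 (plus, FANCD2) and chr2:17753809-17753898 (plus, GEN1).
EXO1: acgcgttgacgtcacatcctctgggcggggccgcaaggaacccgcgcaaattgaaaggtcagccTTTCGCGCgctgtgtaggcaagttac
XRCC2: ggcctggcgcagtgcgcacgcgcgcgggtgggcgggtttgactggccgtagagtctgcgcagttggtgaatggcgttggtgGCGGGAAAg
TOPBP1: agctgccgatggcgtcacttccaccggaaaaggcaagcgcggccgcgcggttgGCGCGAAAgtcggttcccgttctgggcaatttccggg
FANCD2: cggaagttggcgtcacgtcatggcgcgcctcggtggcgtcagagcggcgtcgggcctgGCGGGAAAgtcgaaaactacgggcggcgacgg
GEN1: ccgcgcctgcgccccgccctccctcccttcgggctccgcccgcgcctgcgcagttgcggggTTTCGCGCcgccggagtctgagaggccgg
The same letters thus stand at the start of genes that passed the test between the genotypes and of genes that did not.

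The CCAAT box, the site of the factor NF-Y, was in 15 of the 36 promoters (41.7%) and in 34.6% of all promoters, and none was in the printed stretches of the first set. It was in 3 of the 13 genes that were higher and in 12 of the 23 others. BLM and BRIP1, both higher in PARP1-KO cells, held 3 each in the 150 bases before the start, which are shown with the boxes in capitals, at chr15:90717196-90717345 (plus) and chr17:61863529-61863678 (minus).
BLM: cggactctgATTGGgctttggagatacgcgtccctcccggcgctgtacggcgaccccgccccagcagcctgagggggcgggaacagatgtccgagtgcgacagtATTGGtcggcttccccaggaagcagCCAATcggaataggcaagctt
BRIP1: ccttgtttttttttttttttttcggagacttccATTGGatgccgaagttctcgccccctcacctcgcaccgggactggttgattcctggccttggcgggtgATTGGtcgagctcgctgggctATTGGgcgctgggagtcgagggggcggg
The CHR element, TTTGAA or TTCGAA, was in 3 of the 36 promoters (8.33%) and in 16.4% of all. A match is a stretch of letters, and no binding was measured.

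Position and gene structure were set beside the genotype difference as a description. Genes of chromosome 11 were lower as a group in PARP1-KO cells, with 611 of 777 expressed genes lower and a median log2 fold change of -0.48. Of the 5 members on this chromosome, MUS81 had a log2 fold change of -0.52 where genes within 5 Mb had a median of -0.70, ATM 0.09 where they had -0.48, CHEK1 0.02 where they had -0.45, FANCF 0.12 where they had -0.41, and MRE11 -0.05 where they had 0.00. For the 13 members that were higher with DMSO, the medians of genes within 5 Mb lay on both sides of 0. They were 0.42 for PALB2, 0.30 for BRIP1, 0.28 for RAD51C, 0.24 for ATR and 0.21 for BRCA2. FANCB had 0.18, TOPBP1 0.09 and RAD51D 0.02, while BRCA1 had -0.03, EXO1 -0.06, BARD1 -0.11, BLM -0.31 and XRCC2 -0.43. The copy number of these regions in the clone was not tested. Across the 41 genes the log2 fold change had a Spearman's rho of 0.32 with the span of the gene and of -0.34 with its GC content, beside 0.11 and -0.25 over 13938 expressed genes of the same libraries. The 9 members over 100 kb had a median of 0.59, which is the value of RAD54B with its uncertain counts, and the 8 under 30 kb one of 0.11. Over all expressed genes the medians of these 2 classes were 0.10 and -0.07. When length and GC content entered the fit as offsets, 10 members were higher and 4 were lower (MRE11, NBN, FANCL and FANCI) in place of 13 and 0, and the calls over all genes went from 1930 higher and 1662 lower to 1514 and 2516. BRCA1, BARD1, BRCA2, RAD51D, BLM, EXO1, FANCB, BRIP1 and TOPBP1 kept their call, FANCE gained one, and PALB2, RAD51C, XRCC2 and ATR lost it.

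The next comparisons asked how WT cells respond to the drugs within 5 to 5.5 h. The solvent alone changed 0 of 41 members in WT cells, beside 0% of all tested genes. At an unadjusted p below 0.05 there was 1 member, beside 3116 of all 28922 tested genes. With Tpc, EXO1 alone passed the test, beside 0.857% of all tested genes (0.553% higher and 0.304% lower). It had 58.6, 75.7, 85.2 and 86.7 CPM without treatment and 147, 160, 149 and 137 CPM with Tpc, without overlap and 1.94 times as high (log2 0.95 ± 0.12, edgeR adjusted p = 1.07e-07). BARD1 and RAD54L came next, short of the threshold, with log2 fold changes of 0.64 ± 0.16 and 0.54 ± 0.13 (edgeR adjusted p = 0.0144 and 0.0159). ATR and BRCA2 had larger but less even values of 0.74 ± 0.21 and 0.67 ± 0.21 (edgeR adjusted p = 0.0495 and 0.0747). BRCA1, ATM and CHEK1 had log2 fold changes of 0.37, 0.33 and 0.32 (edgeR adjusted p = 0.177, 0.517 and 0.256), and FANCD2 one of 0.01. Without untreated replicate 4 the count of members that passed was 4, and without replicate 2 of Tpc it was 2.

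OL9-119 alone changed 0 of 41 members in WT cells by edgeR, beside 1.28% of all tested genes, with 13 members below an unadjusted p of 0.05 and 1 called by DESeq2. Of all 28922 tested genes, 4643 were below that unadjusted p. In edgeR 1 passed without untreated replicate 4 or without replicate 2 of OL9-119. The median log2 fold change of the members was 0.26, beside 0.00 for all tested genes. BRCA1, BRCA2, ATR and ATM had log2 fold changes of 0.43, 0.41, 0.59 and 0.55, with edgeR adjusted p of 0.0939, 0.313, 0.127 and 0.226. CHEK1 and FANCD2 had 0.13 and 0.05.

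With Tpc and OL9-119 together, 8 members were higher in WT cells and 0 were lower, beside 4.07% of all tested genes (2.07% higher and 2% lower) and 4.78% higher among the genes counted at least as highly as the lowest member. The median log2 fold change of the members was 0.41, and 34 of 41 were above 0. The 8 came from end resection (EXO1, NBN and RBBP8), the BRCA complex (BARD1 and PALB2), the helicases and motors (BLM and the DNA translocase RAD54L) and the checkpoint (ATR). None of RAD51C, RAD51D, XRCC2 and XRCC3, of the Fanconi core complex, of FANCD2, FANCI and BRIP1, or of the junction nucleases passed.

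EXO1 had 171, 129, 156 and 140 CPM with the combination, against 58.6 to 86.7 CPM without treatment (log2 0.96 ± 0.12, edgeR adjusted p = 3.98e-08). BARD1 had 49.7, 54.7, 45.7 and 48.6 CPM against 18.9, 31.0, 24.9 and 36.6 CPM (log2 0.84 ± 0.16, edgeR adjusted p = 0.000155). Both were free of overlap. ATR had 58.1, 40.9, 62.0 and 74.1 CPM against 27.4, 37.6, 13.7 and 47.3 CPM, so that its groups overlapped at the second library of the combination and the fourth untreated one (log2 0.90 ± 0.21, edgeR adjusted p = 0.00359). PALB2 had 34.3, 28.3, 34.7 and 51.3 CPM against 19.96, 24.4, 18.4 and 23.7 CPM (log2 0.77 ± 0.18, edgeR adjusted p = 0.0034). NBN, the subunit that recruits ATM to breaks, had 90.7, 85.7, 78.8 and 82.4 CPM against 43.8, 54.2, 62.6 and 58.3 CPM (log2 0.63 ± 0.15, edgeR adjusted p = 0.00347). OL9-119 alone gave 67.8 to 73.8 CPM of NBN and Tpc alone 44.6 to 56.8 CPM. Of the 8 calls only those of EXO1 and BARD1 held in every fit without 1 library. ATR lost its call in 9 of 22 alternatives, among them the fits without untreated replicate 1 or 3 (log2 0.64, edgeR adjusted p = 0.0431 without replicate 3) and without replicate 1, 3 or 4 of the combination. PALB2 lost it without untreated replicate 1 or 3 (log2 0.69, edgeR adjusted p = 0.0211 without replicate 3) or replicate 4 of the combination, and NBN and BLM without replicate 1 of either group. RBBP8 lost it without untreated replicate 2 or 3 or replicate 1 of the combination, and RAD54L without untreated replicate 1 or 3 or replicate 1 or 3 of the combination.

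Of the genes that are named in every comparison, CHEK1 came closest to the threshold among those that missed it, with 76.9 to 111 CPM against 57.2 to 69.7 CPM and no overlap (log2 0.53 ± 0.14, edgeR adjusted p = 0.0108). BRCA2 and BRCA1 had log2 fold changes of 0.69 and 0.45 (edgeR adjusted p = 0.0264 and 0.039), ATM one of 0.42 (0.309) and FANCD2 one of 0.07 (0.892). Against Tpc alone the combination changed 0 members, beside 0.18% of all genes (0.118% higher and 0.0622% lower), with 2 below an unadjusted p of 0.05 and 1 called by DESeq2. Of all 28922 tested genes, 3111 were below that unadjusted p. Against OL9-119 alone it changed EXO1 (log2 0.64 ± 0.12, a call lost without replicate 2 of OL9-119 or replicate 1 of the combination), beside 0.408% of all genes (0.249% higher and 0.159% lower). The combination departed from the sum of the single effects over DMSO in 0 members by edgeR, beside 0.00346% of all tested genes. There 0 members had an unadjusted p below 0.05, beside 3008 of all 28922 tested genes. In all 3 prefixes of the library names the 8 genes were higher with the combination, with a median log2 ratio of 0.59 to 1.07. The 8 had been called in these same libraries, so the split by prefix describes them and is no test of a batch. The count was 3 without untreated replicate 1 or without replicate 1 of the combination, 4 without untreated replicate 3, 5 against DMSO-treated cells, and 1 in a fit of the compared groups only.

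**Figure D3:**
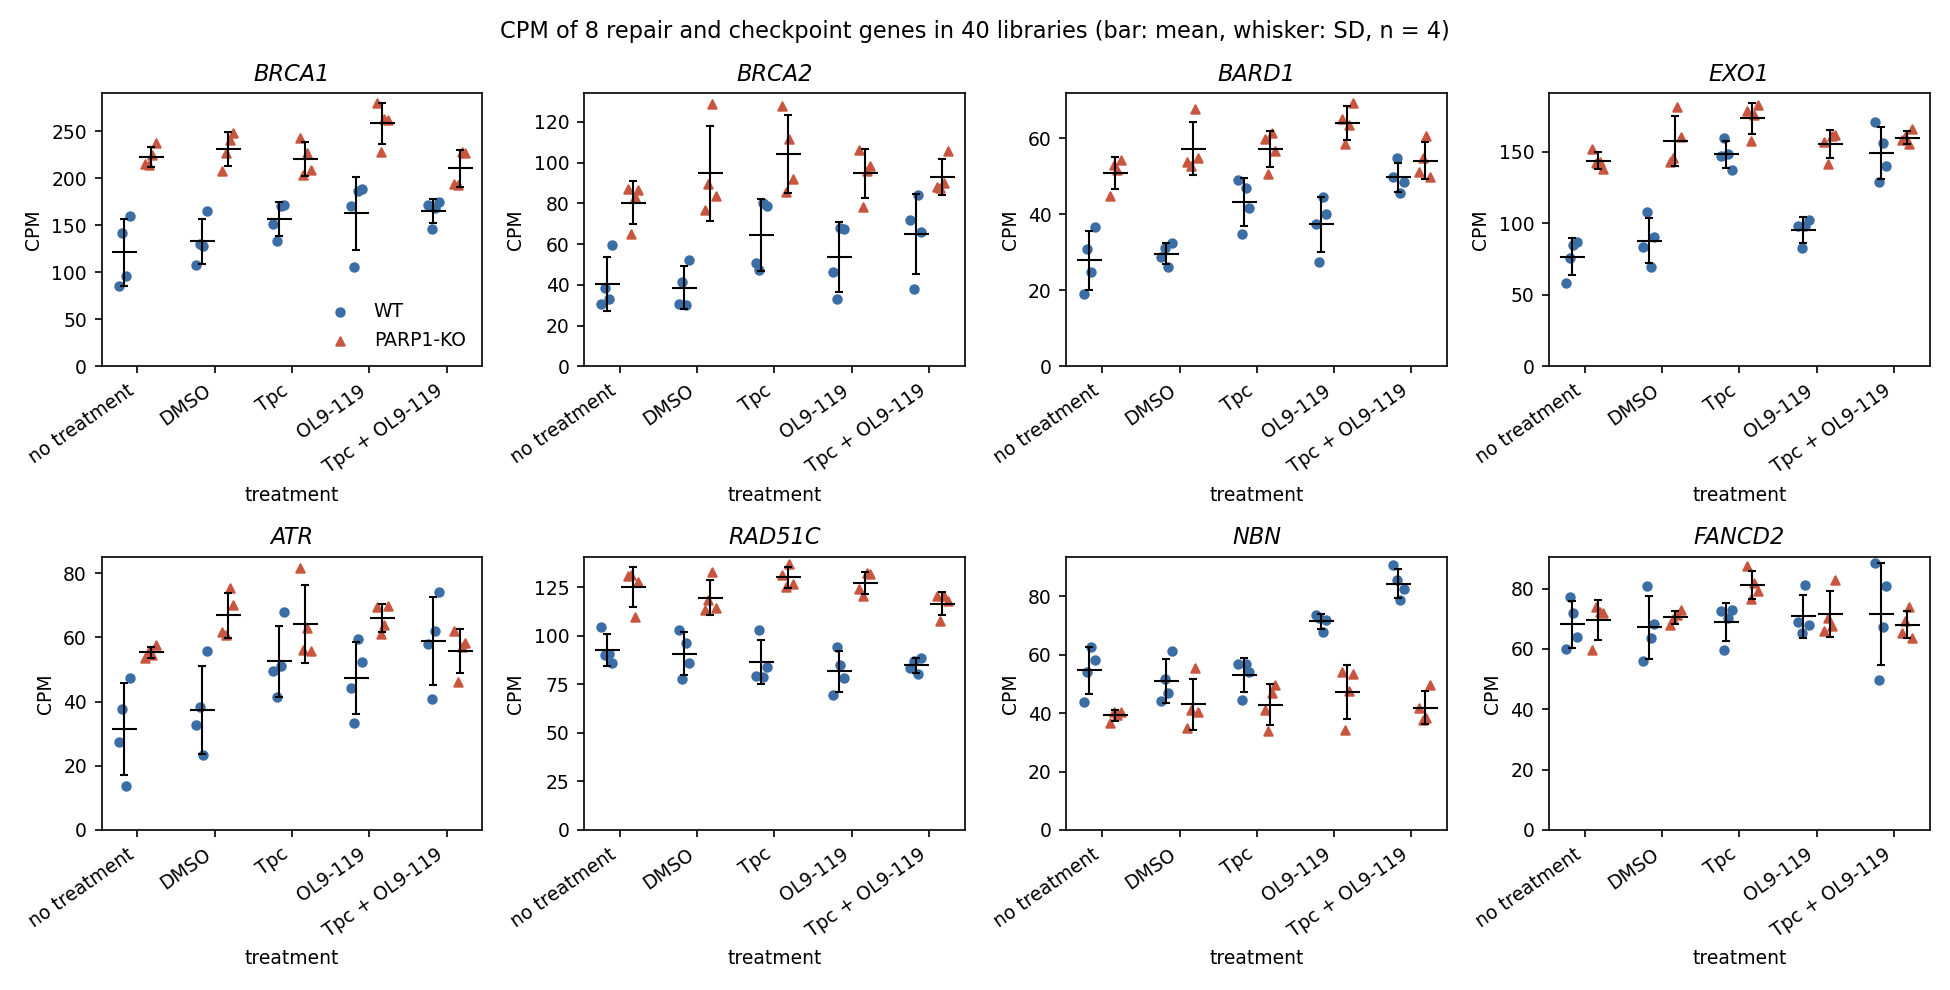
CPM of 8 of the genes in each of the 40 libraries by treatment, for WT (circles) and PARP1-KO cells (triangles), with the mean and SD of 4 libraries. EXO1 in WT cells reaches 129 to 171 CPM with the combination and overlaps the mutant cells there, RAD51C stays apart under all 5 treatments, and NBN in WT cells with the combination lies at 78.8 to 90.7 CPM.

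In PARP1-KO cells, 0 members passed with DMSO, Tpc, OL9-119 or the combination against no treatment, beside 0%, 0.0138%, 0.00346% and 0% of all tested genes, and DESeq2 also called 0 members in each. Between 0 and 3 members per comparison were below an unadjusted p of 0.05. The median log2 fold change of the members was 0.04 with DMSO and 0.12 with Tpc (all tested genes 0 and -0.007). With OL9-119 it was 0.19 and with the combination 0.08 (all tested genes -0.0006 and 0). In the same order, 30, 32, 37 and 27 of the 41 members were above 0. Since Tpc was given at a lower dose, the values stand side by side. EXO1 had 138 to 152 CPM without treatment, 158 to 182 CPM with Tpc, and 155 to 166 CPM with the combination. ATR had 53.6 to 57.5 CPM without treatment and 46.1 to 61.8 CPM with the combination, and NBN 36.7 to 40.4 and 37.6 to 49.8 CPM.

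The drug responses of the genotypes were compared in the same fit, as a comparison that also holds the 2 doses of Tpc. The response to the combination differed in 1 member, EXO1, which was lower by 0.81 ± 0.17 on the log2 scale in PARP1-KO than in WT cells (edgeR adjusted p = 0.00508), beside 0.27% of all tested genes. Another 8 members were below an unadjusted p of 0.05, among them RBBP8 (-0.71, edgeR adjusted p = 0.0823), BARD1 (-0.76, 0.109), ATR (-0.89, 0.213) and NBN (-0.53, 0.301), and 33 of 41 had a difference below 0. Of all 28922 tested genes, 3420 were below that unadjusted p. The median difference was -0.28 for the members and 0.01 for all tested genes. For Tpc and OL9-119 alone 0 members differed by edgeR, beside 0.1% and 0.0657% of all genes, with 3 and 1 below an unadjusted p of 0.05. Of all 28922 tested genes, 2142 and 1968 were below it. EXO1 lost its call in 13 of 30 alternatives. Among them were DMSO-treated cells as the comparator and 10 of the 16 fits without 1 library (WT untreated replicates 1 and 2, WT combination replicates 1 and 3, PARP1-KO untreated and combination replicates 1, 2 and 3). The difference stayed between -0.88 and -0.70 in all 30.

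The genotypes were also compared under each drug. With OL9-119, where the doses were equal, 11 members were higher and 1 was lower in PARP1-KO cells, beside 9.77% of all genes (4.94% higher and 4.83% lower). BRIP1 had 92.3, 70.2, 100 and 102.1 CPM in WT and 170, 143, 186 and 170 CPM in PARP1-KO cells (log2 0.87 ± 0.14, edgeR adjusted p = 1.7e-06), again without overlap. BRCA2 had 46.4, 33.2, 67.9 and 67.4 CPM in WT and 106, 78.2, 96.0 and 98.4 CPM in PARP1-KO cells (log2 0.82 ± 0.21), and BARD1 had 37.6, 27.4, 44.4 and 40.2 and 65.1, 58.4, 63.4 and 69.2 CPM (log2 0.78 ± 0.16). RAD51D had 29.8, 29.1, 33.5 and 34.3 CPM in WT and 51.2, 46.8, 59.8 and 50.3 CPM in PARP1-KO cells (log2 0.72 ± 0.15). EXO1, with 98.1, 82.6, 98.2 and 102.7 CPM in WT and 157, 141, 161 and 162 CPM in PARP1-KO cells, kept a difference of 0.70 ± 0.12. All mutant libraries of these genes were above all WT libraries. CHEK2, the kinase downstream of ATM, was higher by 0.50 ± 0.13. NBN was lower, with 73.8, 72.6, 67.8 and 71.9 CPM in WT and 54.1, 34.1, 47.8 and 53.5 CPM in PARP1-KO cells (log2 -0.60 ± 0.15, edgeR adjusted p = 0.00251). That call was lost without PARP1-KO replicate 2, which holds the lowest value (log2 -0.46, edgeR adjusted p = 0.035). CHEK2 lost its call without WT replicate 3 or PARP1-KO replicate 3 or 4, and BRCA2 and TOPBP1 without WT replicate 1 or 2 or PARP1-KO replicate 1.

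With Tpc, at 100 nM in WT and 50 nM in PARP1-KO cells, 5 members were higher and 0 were lower, beside 8.52% of all genes (4.17% higher and 4.34% lower). RAD51D had 32.3, 28.4, 32.2 and 30.04 CPM in WT and 45.5, 50.9, 43.6 and 47.7 CPM in PARP1-KO cells (log2 0.61 ± 0.15, edgeR adjusted p = 0.00217), and RAD51C had 79.4, 103.004, 78.6 and 84.1 and 131, 125.2, 137 and 126.7 CPM (log2 0.59 ± 0.11, edgeR adjusted p = 0.000104). The other 3 were BRIP1, TOPBP1 and BLM, which differed by 0.58 ± 0.14, 0.48 ± 0.13 and 0.47 ± 0.13. BRIP1 had 90.8, 97.4, 117.4 and 109 CPM in WT and 165, 140, 171 and 144 CPM in PARP1-KO cells. TOPBP1 had 215, 198, 248 and 242 and 337, 274, 353 and 295 CPM, and BLM 90.0, 88.7, 102.9 and 102.4 and 146, 119, 141 and 124.6 CPM, all without overlap. EXO1, with 137 to 160 and 158 to 182 CPM, was no longer past the threshold (log2 0.23). The count depended on single libraries, from 2 without WT replicate 1, WT replicate 2 or PARP1-KO replicate 3 to 7 without WT replicate 3, with 3 without PARP1-KO replicate 1 or 4, and DESeq2 called 8.

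With the combination only RAD51C was higher, with 83.1, 87.0, 80.1 and 88.7 CPM in WT and 120, 108, 120.5 and 118 CPM in PARP1-KO cells (log2 0.46 ± 0.11, edgeR adjusted p = 0.00326). NBN was lower, with 78.8 to 90.7 CPM in WT and 41.9, 37.6, 38.4 and 49.8 CPM in PARP1-KO cells (log2 -1.01 ± 0.15, edgeR adjusted p = 1.18e-06), and so was FANCL, with 52.9, 61.8, 51.8 and 51.3 CPM in WT and 32.8, 35.2, 33.4 and 44.2 CPM in PARP1-KO cells (log2 -0.58 ± 0.16, edgeR adjusted p = 0.00814). These 3 stood beside 7.27% of all genes, 3.56% higher and 3.71% lower. RAD51C lost its call without WT replicate 1 or 3 or PARP1-KO replicate 1, and FANCL without any library but PARP1-KO replicate 4. With the offsets 0 members were higher and 6 were lower, and over all genes 997 were higher and 1595 lower in place of 1031 and 1072. The median of the 41 genes was -0.06, beside 0.14 for all tested genes. With the filter filterByExpr on low counts, the median of all genes was 0.04 for the combination. For the 41 genes it had been 0.22 without treatment and 0.27 with DMSO. Without treatment it was 0.17 for all tested genes and 0.006 for those counted at least as highly as the lowest member. BRCA1, BRCA2, BRIP1, TOPBP1 and XRCC2 had log2 fold changes of 0.35, 0.51, 0.47, 0.34 and 0.34 that missed the threshold, although their groups did not overlap under any of the 5 treatments. ATR had one of -0.07.

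Over the 5 treatments RAD51C was higher in all 5, BLM, BRIP1, RAD51D and TOPBP1 in 4, and BRCA1, BARD1, BRCA2, XRCC2 and EXO1 in 3, while 27 members were higher in none. With treatments of unequal dose in 2 of the 5, this is a count of calls and not a trend. The log2 fold change was above 0 under all 5 treatments in 17 members and below 0 in 7, ATRIP, FANCL, MRE11, MUS81, NBN, RECQL5 and SLX4. Counts of this kind over all tested genes are not given here. Whether the members were more even over the treatments than other genes was therefore not tested. The 5 comparisons also share the same fit and the same mutant clone.

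**Figure D4:**
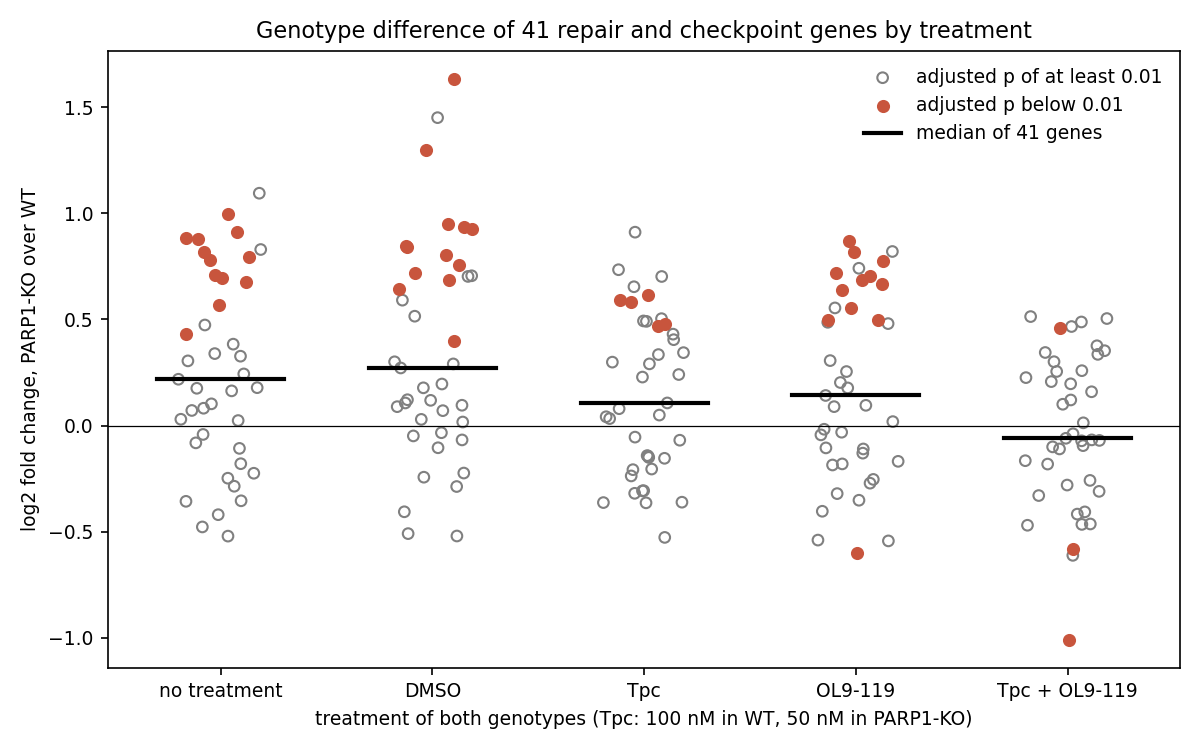
Log2 fold change of PARP1-KO over WT cells for each of the 41 genes under the 5 treatments, filled where the adjusted p was below 0.01, with the median as a line. The median is 0.22 without treatment, 0.27 with DMSO and -0.06 with the combination, and 12, 13 and 1 filled points lie above 0. Of all tested genes 5.97%, 6.67% and 3.56% are higher, in the same order. With Tpc and with the combination the dose of Tpc differs between the genotypes, so the points are no trend over treatments.

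The summed level of the 41 genes put the same values on 1 scale. It was 2266 to 2669 CPM in untreated WT cells and 2104 to 2643 CPM with DMSO, then 2698 to 2967 CPM with Tpc, 2554 to 2912 CPM with OL9-119 and 2894 to 3151 CPM with the combination. In PARP1-KO cells it was 3013 to 3086 CPM without treatment and 2938 to 3417 CPM with DMSO. With Tpc it was 2984 to 3420 CPM in these cells, with OL9-119 3067 to 3452 CPM and with the combination 2940 to 3214 CPM. WT cells with the combination thus overlapped the mutant range. With Tpc they reached its lower end, at up to 2967 CPM where PARP1-KO cells with DMSO began at 2938 CPM. WT cells without treatment, with DMSO or with OL9-119 did not reach it. The number of genes detected per library at equal depth was 15478 to 19434 in untreated WT cells and 17618 to 20887 in untreated PARP1-KO cells, while the 16078 to 19355 of WT cells with the combination lay inside the untreated WT range. With that number as a covariate, 9 members were higher between the genotypes with DMSO and 10 with the combination in WT cells. Without both of the WT libraries that stand apart, 12 and 7 were higher.

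**Figure D5:**
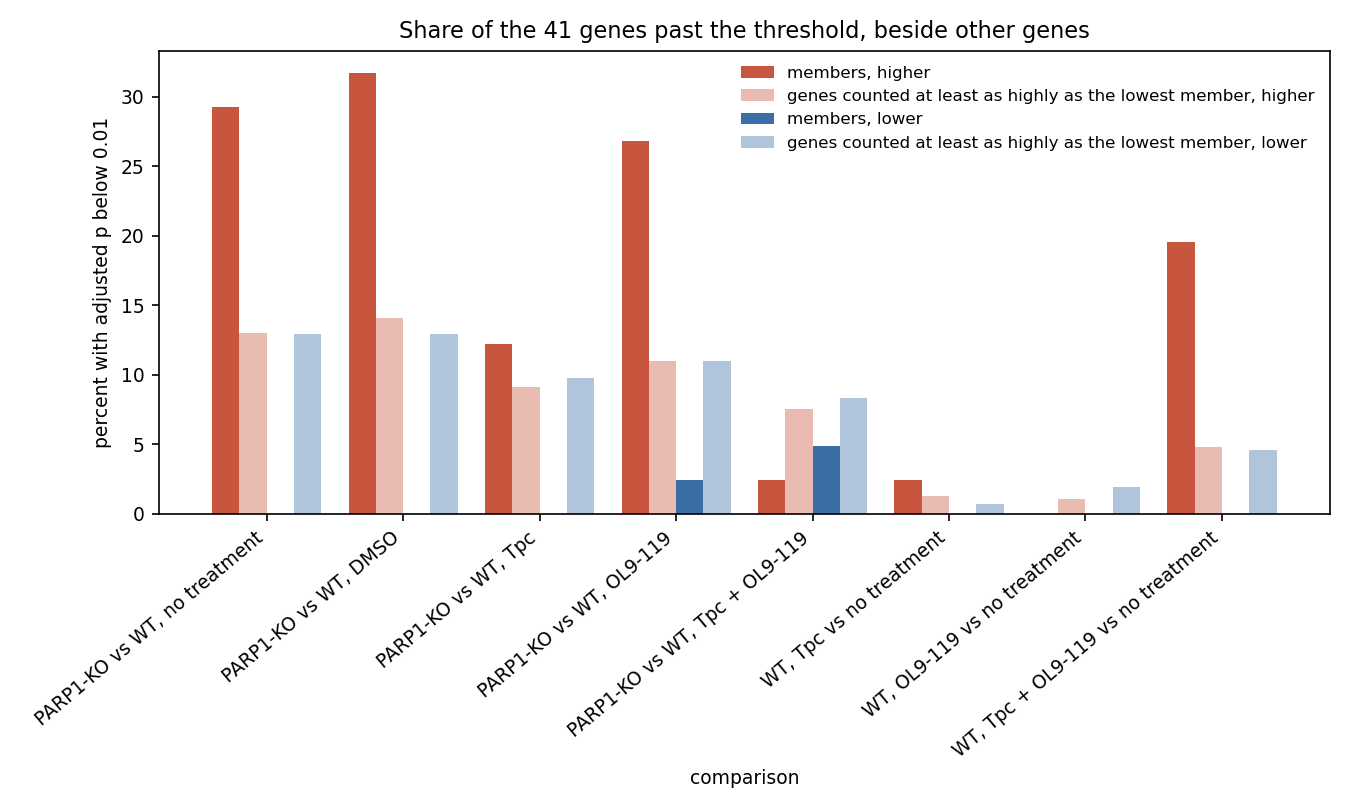
Percent of the 41 genes past the threshold in each direction (full color) beside the percent of the 12302 genes counted at least as highly as the lowest member (pale), in 8 comparisons. With DMSO 13 of the 41 genes are higher between the genotypes and 0 are lower, while 14.1% and 12.9% of the other set are.

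Other genes of the same processes were counted from lists compiled by hand. In PARP1-KO against WT cells with DMSO, 5 of 33 other recombination genes were higher and 1 was lower, 4 and 1 of 13 other Fanconi genes, and 3 and 3 of 26 other checkpoint and break-signalling genes. UIMC1, MCM8 and TOP3A led the recombination genes with log2 fold changes of 1.01, 0.88 and 0.68, and SEM1, a small partner of BRCA2 and of the proteasome, was lower (-0.67). RFWD3, ERCC4 and USP1, the enzyme that takes ubiquitin off FANCD2, were higher by 1.08, 1.04 and 1.02, and FAAP100 was lower (-0.77). RIF1, CDC25A and TP53BP1 were higher by 1.16, 0.96 and 0.79, and H2AX, CDC25C and CDC25B were lower by values of -1.17, -0.66 and -0.59. In WT cells with the combination, 3 of the 33 were higher (ABRAXAS1, FIGNL1 and TOP3A, by 1.21, 0.73 and 0.69) and SEM1 was lower (-1.004), USP1 was higher among the 13 (0.54), and RIF1 and RAD1 were higher (0.97 and 0.57) and CDC25B lower (-0.49) among the 26. With Tpc, TOP3A and RAD1 were higher by 0.72 and 0.51, and with OL9-119 SEM1 was lower (-0.82).

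Many of the 41 genes are expressed in S phase, and markers of the cycle moved in the same comparisons. In PARP1-KO cells with DMSO, 8 of 26 S-phase genes were higher, led by CDT1, MCM2 and CDC6 with log2 fold changes of 1.05, 0.67 and 0.66, and 3 were lower (POLA2, GINS2 and GINS4, -0.99, -0.71 and -0.70). Of 23 genes of G2 and mitosis 10 were lower and 0 higher, led by CENPE, CCNB1 and CCNA2 with -1.48, -1.20 and -0.87. In WT cells with Tpc, 14 of the 23 were lower (PLK1, KIF20A and CDC20, -1.78, -1.57 and -1.35) and 2 S-phase genes higher (CDC6 and MCM4, 0.57 and 0.49). With the combination 17 of the 23 were lower (KIF20A, PLK1 and AURKA, -1.74, -1.65 and -1.48) and CDC6 was higher (0.40), and with OL9-119 CCNB1 and BIRC5 were lower (-0.50 and -0.65), as was PCNA (-0.57). The part of the cycle in the values of the 41 genes was not tested, and in bulk RNA a change in the share of cells in a phase and in the RNA per cell cannot be told apart.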

How the data were processed

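Poly(A) RNA of HEK293A cells was sequenced from directional libraries in 10 groups of 4. Reads were mapped by the authors to hg38 using STAR 2.7.8, and the deposited values are raw read counts per gene, listed by Ensembl identifier. FastQC 0.11.9 and Picard 2.26.6 are named in the submitters' processing notes. The strand setting of the counting is not given in the sources used here.

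Identifiers were named with GENCODE 44, which matched 57754 of 58395. The members, the lists and the tests were chosen with earlier results of these data known. Genes with at least 10 counts over all libraries were tested (28922). The quasi-likelihood test of edgeR 4.0.16 (R 4.3.3) was fitted on all 40 libraries with TMM normalization, 10 group means and no block, and p-values were adjusted by Benjamini and Hochberg over all tested genes. A gene was called at an adjusted p below 0.01. SE was the log2 fold change divided by the square root of F. CPM used TMM-normalized library sizes. Drug responses were taken against untreated cells. Total counts of 3455043 to 20379777 gave members a mean of 46.4 to 3987 counts per library.

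All 41 members were accounted for. Values in every library were given for up to 5 called members in each direction, and BRCA1, BRCA2, ATM, ATR, CHEK1 and FANCD2 were named in the genotype comparison and in the WT responses whatever their values. On simulated data of 27969 genes, 200 of them changed, the procedure called 144 of the changed genes and 0 of the others. Changes there had a log2 fold change of at least 1 in size, and no batch or deviant library was simulated. Most called members differed by less, so the result does not give the rates for them. Alternatives were other normalizations and filters, DESeq2 1.42.0, offsets for gene length and GC content, a replicate block, the prefix of the library name, the number of detected genes as a covariate and leaving out libraries. Chi-square per degree of freedom between replicates was at least 2.33, so that no library was counted as a repeat of another. The lowest values were those of replicates 3 and 4 in WT cells with Tpc (2.33), the TDP1 inhibitor (2.91) and the combination (2.87). Other pairs in these groups began at 4.93, 5.76 and 10.1. Each of the close pairs shares a prefix of the library name, and its libraries entered the tests as separate replicates. Whether they are independent was not tested. Promoters came from RefSeq (GRCh38.p14).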

Additional observations from a re-analysis of the deposited data

Results flagged for a closer look

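Of 180 sets of 4 libraries that were looked at for a library far from the other 3, 6 had one, where chance gives about 1 in 20. BARD1 stood at 67.54 CPM in replicate 3 of PARP1-KO cells with DMSO, against 52.6 to 54.8 CPM in the others. With the combination of Tpc and OL9-119 in PARP1-KO cells, BRCA2 was at 105.9 CPM in replicate 4 against 87.5 to 89.9 CPM, and TOPBP1 at 331.2 CPM in replicate 3 against 276 to 285 CPM. In untreated PARP1-KO cells, FANCD2 was at 59.75 CPM in replicate 1 against 72.0 to 73.9 CPM, and RAD51C at 109.6 CPM in replicate 3 against 127.8 to 131 CPM. FANCL was at 61.85 CPM in replicate 2 of WT cells with the combination, against 51.3 to 52.9 CPM.

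The response of EXO1 to the combination differed between the genotypes by -0.8107 on the log2 scale, PARP1-KO minus WT, in a test of the difference itself (edgeR adjusted p = 0.00508). Tpc was at 50 nM in PARP1-KO and at 100 nM in WT cells, and the part of the dose in the difference cannot be told apart from that of the genotype.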

How the results depend on the processing

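No called member changed sign in any alternative run, while values near 0 did, such as FANCD2 between the genotypes with DMSO (0.07, range -0.21 to 0.17). The number of called members moved by over 1.5 times as follows, and the cause was not tested unless the setting itself is a stricter or looser threshold. At an adjusted p below 0.05, 10 members were called between the genotypes with Tpc and 6 with the combination, and in WT cells 4 with Tpc, 2 with OL9-119, 15 with the combination and 1 in the combination against Tpc. When a log2 fold change of at least 1 was also asked for, the genotypes differed in 2 members with DMSO, 1 with the combination and 0 without treatment, with Tpc and with OL9-119, and 0 were left in the WT responses and in the difference between genotypes. In fits of the compared groups only, the counts were 7 between the genotypes with DMSO and 9 with Tpc, 1 in WT cells with the combination, and 0 for the combination against OL9-119 and for the difference between genotypes. Between the genotypes with Tpc, where 5 were called, RLE normalization gave 8, upper-quartile normalization 9, DESeq2 8 and the fit without the WT libraries of low complexity (replicate 3 without treatment and replicate 3 with DMSO) 10. With the combination, where 3 were called, filterByExpr gave 5, the offsets for length and GC content 6, DESeq2 6 and the fit without low-complexity libraries 7. In WT cells with Tpc, no filter on low counts gave 3, filterByExpr 3, DESeq2 3, the offsets 2 and the number of detected genes as a covariate 2. DESeq2 called 1 with OL9-119 and 1 for the combination against Tpc, where the fit without low-complexity libraries also called 1. Against DMSO-treated cells the combination gave 5 in WT cells and 0 in the difference between genotypes.

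Over all genes, upper-quartile normalization moved the calls between the genotypes with Tpc from 1207 higher and 1256 lower to 1530 and 1054, those in WT cells with Tpc from 160 and 88 to 135 and 119, and those with the combination from 598 and 579 to 501 and 763. The offsets gave 199 and 216 in WT cells with Tpc. The median log2 fold change of all genes between the genotypes with DMSO fell by 0.19 without a filter on low counts and by 0.18 with the covariate.

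Leaving out 1 library at a time gave 9 to 15 members between the genotypes with DMSO, 8 to 12 without treatment, 2 to 7 with Tpc, 10 to 12 with OL9-119 and 1 to 3 with the combination. In WT cells it gave 1 to 4 with Tpc, 0 to 1 with OL9-119, 3 to 11 with the combination and 0 to 1 for the combination against OL9-119, and it gave 0 to 1 for the difference between genotypes. The other comparisons stayed at 0. The covariate and the fit without low-complexity libraries were chosen after seeing the data.

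The libraries were not paired by replicate number, since same-numbered libraries did not deviate together in every pair. Some did. Between WT cells with DMSO and without treatment, deviations from the group means had a correlation of 0.39 for replicate 4 and of 0.02 to 0.09 for the others. With a replicate block, 8 members were called between the genotypes with Tpc and 1 in WT cells for the combination against Tpc, and the other counts stayed within 1.5 times. Depth limits the lowest members most, and counts of overlapping genes are uncertain.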
